A study of Mus musculus with 2 samples.

Results

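The cells described here are tumor-infiltrating natural killer (NK) cells that carried transcripts of Ltb, the gene of lymphotoxin beta, together with Cxcr3 or Ccr2, the genes of 2 chemokine receptors. They were chosen by raw transcript counts per cell, where each count is a unique molecular identifier (UMI). A member had at least 1 Ltb UMI and at least 1 UMI of Cxcr3 or Ccr2. It also had to pass 5 exclusions: fewer than 3 of Nr4a1, Nfkbid, Nfkbiz and Csrnp1 detected, fewer than 2 of Cx3cr1, S1pr5 and Zeb2 detected, no Klrg1 UMI, fewer than 2 UMIs of Cd3d and Cd3e together, and no UMI of Tmem176a or Tmem176b. Cells with 500 or more genes detected and no more than 10% of UMIs from mitochondrial genes were kept, and 574 of these 6622 cells were members. The rule itself set the levels of these 15 genes, so those levels are given as a description and nothing is supported with them.

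The cells came from tumors of RMA-S, a murine lymphoma line poor in surface MHC class I, grown for 2 weeks under the skin. Cells negative for CD3 epsilon and positive for NK1.1 had been sorted and made into 10x Chromium 3′ libraries, which count transcripts by their 3′ ends. The KO library came from NK-Hif1a-/- mice, in which Hif1a, the gene of a hypoxia-inducible transcription factor subunit, is deleted in NK cells. The WT library came from wildtype mice, also bearing RMA-S tumors. The labels do not give the Cre driver, the deleted part of Hif1a, the age or number of mice, or whether cells were pooled. There was 1 library per genotype, so no test was made, and every difference below describes these 2 libraries. All intervals are exact 95% intervals of counting error, which do not cover differences between mice, tumors or preparations and take UMIs as independent molecules.

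Lymphotoxin beta is a membrane protein of the tumor necrosis factor (TNF) family that holds lymphotoxin alpha at the cell surface. The complex binds the lymphotoxin beta receptor on stromal, endothelial and myeloid cells and drives the noncanonical NF-kB pathway there. CXCR3 directs lymphocytes toward interferon-induced chemokines, and CCR2 directs cells toward CCL2 and related chemokines. In mouse NK cells, CD27, the stem cell factor receptor KIT and the transcription factor TCF7 mark less mature stages, while CD11b (Itgam), KLRG1, CX3CR1 and granzyme content mark more mature ones.

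The KO library came with 3110 barcodes and 13407906 UMIs, and the WT library with 3574 barcodes and 19553440 UMIs. After filtering, 3067 KO and 3555 WT cells remained, with medians of 3793 and 4440 UMIs. The tables shared 19 barcodes, of which 1 was a KO member and 3 were WT members. Hif1a (chromosome 12, 73901375 to 73947530, plus strand, GRCm38) stood at 64.0 CPM (counts per 1e6 UMIs, taken over the summed UMIs of a group of cells) in KO members and 51.3 CPM in WT members. The log2 ratio of KO over WT was 0.29 (-0.16 to 0.78). Where a 3′ tag falls relative to the deletion is not known, so this level checks nothing about it.

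Members made up 211 of 3067 KO cells, or 6.88% (6.01% to 7.83%), and 363 of 3555 WT cells, or 10.2% (9.23% to 11.3%). The KO members held 953275 UMIs in all, with 1470 to 18785 per cell and a median of 4023. The WT members held 2084168 UMIs, with 2383 to 19396 per cell and a median of 5175. The comparison group used below was the 1726 other gated cells, that is cells that passed the same 5 exclusions but lacked Ltb, or lacked both receptors (670 KO and 1056 WT). Their median depths were 3082 and 3654 UMIs, lower than those of the members. Levels below are therefore compared as CPM, and shares of cells also at equal depth.

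The NK label was checked against 12 NK markers, each of which was detected among the members of both libraries. Every KO member carried at least 4 of them and every WT member at least 6, with a median of 10 in both. Nkg7, a cytotoxic granule membrane gene, was found in 99.1% of KO and 99.4% of WT members. Klrb1c, which encodes the NK1.1 antigen used for the sort, was found in 88.6% and 93.9%. Eomes, a transcription factor of conventional NK cells, stood at 267 and 216 CPM, beside 274 and 226 CPM in the other gated cells.

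Of the markers that came with the label and were not part of the rule, Ly6e was higher in members of both libraries, at 561 against 328 CPM in KO and 548 against 333 CPM in WT. Ly6e encodes an interferon-inducible GPI-anchored surface protein. Cd7, an immunoglobulin family surface protein of T and NK cells, was higher by less, at 576 against 428 CPM and 654 against 452 CPM. Clec2i, a ligand gene of the NK receptor NKR-P1 family, differed little, at 51.4 against 46.6 CPM in KO and 58.5 against 45.5 CPM in WT. Its log2 ratio of members over other gated cells was 0.13 (-0.38 to 0.64) in KO and 0.33 (0.03 to 0.69) in WT, so it did not mark the members in the KO library beyond counting error.

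Markers of other cell types were read as summed levels, beside the NK list, which summed to 20618 CPM in KO and 16471 CPM in WT members and was higher in the other gated cells, at 28144 and 26523 CPM. Of 9 T cell markers in the tables, Cd4, Cd8a, Cd8b1 and Cd5 were at 0 in the members of both libraries and Cd6 also in WT members. The T list summed to 43.0 CPM in KO and 60.5 CPM in WT members, against 34.2 and 44.8 CPM in the other gated cells. The list of helper-like innate lymphoid cells summed to 209 and 140 CPM in members, against 155 and 95.8 CPM, with 5 of 12 markers detected in KO and 6 of 12 in WT members and Il22, Il5 and Ccr6 at 0 in both. Tmem176a and Tmem176b were at 0 by the rule. The myeloid and dendritic list summed to 234 and 354 CPM in members against 469 and 274 CPM, with 10 and 11 of 15 markers detected among members and C1qa and Flt3 at 0. The erythroid list summed to 274 and 121 CPM in members against 313 and 1069 CPM. B cell markers summed to 16.8 and 9.12 CPM in members and granulocyte markers to 1.05 and 3.84 CPM, with S100a8 at 0. At least 3 markers of the lists other than NK and T were found in many members, and 117 KO and 219 WT members remained without those cells. The part of these markers in the results was not tested, beyond the values given without those cells.

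**Figure D1:**
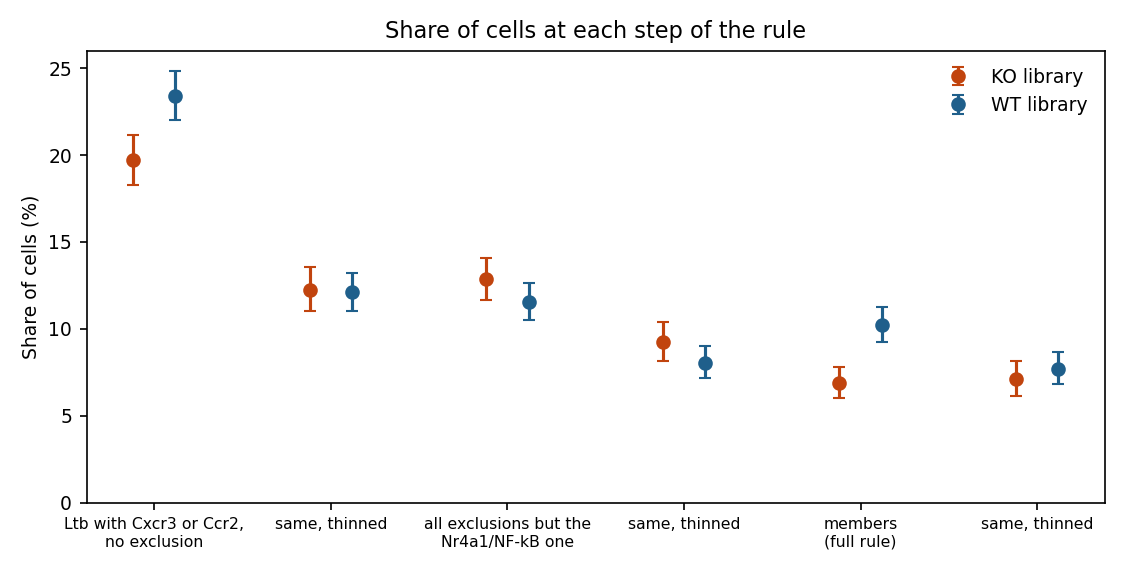
Share of kept cells at each step of the rule, in percent, for the KO and WT libraries, with bars for exact 95% binomial intervals, before and after thinning each cell to 2500 UMIs. Members were 6.88% of KO and 10.2% of WT cells at full depth, and 7.10% and 7.71% after thinning.

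The 2 libraries differed most at the exclusion on Nr4a1, an orphan nuclear receptor gene, and the NF-kB regulators. Before any exclusion, cells with Ltb and a receptor made up 604 of 3067 KO cells (19.7%, 18.3% to 21.1%) and 832 of 3555 WT cells (23.4%, 22.02% to 24.8%). Of these cells, 46.9% in KO and 14.5% in WT had at least 3 of Nr4a1, Nfkbid, Nfkbiz and Csrnp1. Klrg1, an inhibitory receptor of mature NK cells, worked the other way and was present in 19.2% of them in KO and 31.1% in WT. Without the exclusion on Nr4a1 and its 3 companions, the members would be 394 KO cells, or 12.8% (11.7% to 14.1%), and 411 WT cells, or 11.6% (10.5% to 12.7%), so KO then stood above WT, with overlapping intervals.

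The share was also taken at equal depth. When every cell was thinned to 2500 UMIs, which left out 418 KO and 92 WT cells as too shallow, Ltb with a receptor had a share of 12.2% (11.01% to 13.5%) in KO, close to the 12.1% (11.03% to 13.2%) in WT. Members by the full rule were then 7.10% (6.15% to 8.14%) of KO cells. Among WT cells they were 7.71% (6.84% to 8.65%), so these intervals overlapped. Among gated cells at full depth, members were 24.0% in KO and 25.6% in WT, again with overlapping intervals (21.2% to 26.9% and 23.3% to 27.9%). Among thinned gated cells they were 17.7% (15.4% to 20.1%) in KO and 13.4% (11.9% to 14.96%) in WT, so KO was higher there and the intervals did not overlap. Cells that passed all exclusions were 40.2% of thinned KO and 57.6% of thinned WT cells, against 28.7% and 39.9% at full depth. The exclusions thus passed more cells on thinned counts, and members by thinned counts need not be the same cells.

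A receptor UMI was more frequent in gated cells with Ltb than in those without. Among gated cells with Ltb, 78.4% in KO and 76.1% in WT had a receptor UMI, against 57.2% and 56.2% of gated cells without Ltb. After thinning, the values were 68.4% against 53.6% in KO and 59.1% against 43.9% in WT. Ccr2 was found in 54.5% of KO and 55.3% of WT cells kept, and Cxcr3 in 12.7% and 14.9%. Accordingly 142 KO and 230 WT members had Ccr2 alone, 20 and 24 had Cxcr3 alone, and 49 and 109 had both. No cell type known to lack Ltb or Ccr2 was set apart here, so the part of free RNA in single UMIs was not tested.

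Many members lay at the edge of the rule. Ltb was at exactly 1 UMI in 104 KO and 157 WT members, at 2 in 48 and 75, and at 3 or more in 59 and 131, with a maximum of 14 in KO and 17 in WT. A receptor was represented by exactly 1 UMI in 65 KO and 97 WT members. Just inside the exclusion on Nr4a1 and its companions, 84 KO and 79 WT members had 2 of the 4 genes, and just outside it 92 KO and 38 WT cells had 3 and met every other condition. Just outside the Klrg1 exclusion, 30 KO and 71 WT cells had exactly 1 Klrg1 UMI.

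Ltb lies on chromosome 17 at 35194439 to 35196320 on the plus strand of GRCm38, Cxcr3 on the X chromosome at 101731535 to 101734269 on the minus strand, and Ccr2 on chromosome 9 at 124101950 to 124113557 on the plus strand. The Ltb promoter is shown because the rule joins Ltb with an exclusion on NF-kB regulator genes, and Ltb is known as an NF-kB target in lymphocytes. The sequence is the RefSeq window at chr17:35194257-35194556 on the plus strand of GRCm38.p6, from 250 bases before to 50 bases after the RefSeq start. Capitals mark a match to the classical kappa-B decamer, the binding motif of NF-kB, whose letters are the capitals read on the opposite strand.
Ltb promoter: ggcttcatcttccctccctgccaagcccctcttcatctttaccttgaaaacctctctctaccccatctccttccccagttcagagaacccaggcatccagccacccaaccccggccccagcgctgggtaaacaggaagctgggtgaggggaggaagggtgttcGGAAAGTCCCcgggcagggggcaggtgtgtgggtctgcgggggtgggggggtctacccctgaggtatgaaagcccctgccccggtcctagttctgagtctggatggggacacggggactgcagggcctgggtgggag
The match covers bases 164 to 173 of the window and begins 87 bases before the RefSeq start. The GENCODE start of 35194439 differs and lies between the match and the RefSeq start, so the distance to it is shorter. Searched on both strands, this decamer was present in 51 of 32851 promoter windows of the same length (0.155%). A looser form that overlaps it, 3 G, then any 5 bases, then 2 C, was present in 50.8%. A match is a description of letters and not of binding.

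Across cells that passed the other 4 exclusions, Ltb did not climb with the number of Nr4a1, Nfkbid, Nfkbiz and Csrnp1 detected. In the KO library Ltb stood at 265 CPM (226 to 308) in the 189 cells with none of the 4, at 169, 163 and 123 CPM in cells with 1, 2 and 3, and at 88.9 CPM (76.8 to 102) in the 501 cells with all 4. Nfkbia, the gene of the NF-kB inhibitor I-kappa-B alpha and itself an NF-kB target, went from 562 to 3534 CPM over the same steps. In the WT library Ltb stood at 173 CPM (155 to 192) in 504 cells with none, at 207, 151 and 124 CPM in between, and at 145 CPM (106 to 193) in the 57 cells with all 4. Nfkbia went from 622 to 2919 CPM there. Ltb was thus lower where these activation genes were more widely detected in the KO library, with a less even course in WT. The share of such cells with Ltb and a receptor went from 27.0% to 18.2% in KO and from 23.8% to 17.5% in WT. Both ends use genes of the rule, and depth rose with the steps, from a median of 3034 to 3947 UMIs in KO.

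The other genes of the lymphotoxin pathway gave little. Lta, the partner that Ltb needs for the surface complex, had 0 UMIs in KO members, a count that allows up to 3 UMIs (a one-sided limit, unlike the intervals), and 6 UMIs in WT members. Ltbr, the receptor, had 0 UMIs in both, and Tnfrsf14, the receptor gene HVEM for the ligand LIGHT, had 0 and 1. Tnf had 14 and 32 UMIs, or 14.7 and 15.4 CPM, and Tnfsf14, which encodes LIGHT, had 40 and 77 UMIs, or 42.0 and 36.9 CPM. Among the intracellular genes, Map3k14, the NF-kB inducing kinase, stood at 32.5 CPM in KO and 14.4 CPM in WT members. Nfkb2, the noncanonical NF-kB precursor, stood at 75.5 and 76.8 CPM, and Relb, its partner, at 61.9 and 58.1 CPM.

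To describe what else set the members apart, UMIs were summed over members and over other gated cells in each library, and the log2 ratio was taken with 5 CPM added to both sides. A gene counted as 2-fold apart when it had at least 100 UMIs in members of both libraries together, the same sign in both, and a mean ratio past 2-fold. Of 3312 genes outside the rule, 5 (0.151%) were higher and 6 (0.181%) lower in members. The 5 became 0 with 20 CPM added or with Cxcr3 as the sole receptor, and the 5 and 6 became 0 and 2 without cells carrying at least 3 markers of other cell types. With Cxcr3 as the sole receptor, the other gated cells took in the 142 KO and 230 WT members with Ccr2 alone. Settings that changed the members also changed which genes reached 100 UMIs. The groups were cut from the same counts, so these are descriptions with no test. Genes at the low end had to have 100 UMIs in members, which leaves out genes that were lower still. The genes named are the 15 highest and the 10 lowest by mean ratio.

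Emb, Tcf7 and Kit, of the list of immature CD27 NK genes, stood on the higher side, as did Ikzf2 of the transcription factor list. Emb, the gene of the cell adhesion glycoprotein embigin (chromosome 13, 117208536 to 117274415, plus strand), stood at 649 CPM in KO members against 342 CPM in other gated cells, and at 555 against 268 CPM in WT. Its log2 ratio was 0.91 (0.77 to 1.08) in KO and 1.03 (0.93 to 1.17) in WT. Tcf7, the transcription factor TCF1 (chromosome 11, 52252371 to 52283014, minus strand), stood at 149 against 75.1 CPM in KO and 145 against 74.2 CPM in WT. Its ratios of 0.94 (0.66 to 1.32) and 0.92 (0.74 to 1.20) were alike in the 2 libraries. Kit stood at 35.7 against 22.2 CPM and 43.7 against 18.2 CPM, and Ikzf2, the transcription factor Helios, at 138 against 60.0 CPM and 79.2 against 41.2 CPM.

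Several higher genes rested on few cells. Il7r, the interleukin-7 receptor chain, stood at 51.4 against 15.99 CPM in KO and 24.5 against 10.2 CPM in WT, but 10 cells held 71.4% of its UMIs in KO members and 56.9% in WT members. Ctla4, an inhibitory receptor, stood at 28.3 against 8.88 CPM and 37.4 against 11.2 CPM, with 88.9% and 53.8% of its UMIs in 10 cells. Crtam, an adhesion receptor of activated lymphocytes, had 82.5% of its 40 UMIs in KO members in 10 cells and 27.0% of 100 UMIs in WT. H2-Oa, an MHC class II family gene known from B cells, stood at 28.3 against 6.22 CPM and 40.3 against 14.3 CPM, from 27 and 84 UMIs in members. Hvcn1, the voltage-gated proton channel, stood at 64.0 against 20.9 CPM and 49.4 against 24.6 CPM. Lag3, an inhibitory receptor, stood at 71.3 against 41.3 CPM and 57.1 against 29.4 CPM. Mean log2 ratios turned to -0.26 for Ctla4 and -0.22 for Crtam with Cxcr3 as the sole receptor, where the comparison group held the members with Ccr2 alone. They turned to -0.18 for Crtam and -0.16 for Lag3 without cells carrying at least 3 S and G2M genes. Ms4a4c, Spint2, Mgst2, Plac8 and Ly6e completed this side, with log2 ratios from 0.44 for Ms4a4c in KO to 1.49 for the same gene in WT.

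On the lower side stood effector genes. Gzmb, the gene of granzyme B (chromosome 14, 56258838 to 56262260, minus strand), stood at 971 CPM in KO members against 2002 CPM in other gated cells, and at 830 against 2299 CPM in WT. Its log2 ratio was -1.04 (-1.15 to -0.94) in KO and -1.46 (-1.54 to -1.40) in WT. Gzma, granzyme A (chromosome 13, 113093825 to 113100981, minus strand), stood at 8629 against 14065 CPM and 4771 against 11252 CPM, with ratios of -0.70 (-0.74 to -0.67) and -1.24 (-1.27 to -1.21). Members were thus lower in both granzymes in each library, and the gap was wider in WT.

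The integrin gene Itgam, whose product CD11b marks mature NK cells (chromosome 7, 128062640 to 128118491, plus strand), stood at 51.4 against 120 CPM in KO and 35.0 against 93.6 CPM in WT. Cma1, a chymase gene (chromosome 14, 55941451 to 55944675, minus strand), stood at 296 against 581 CPM and 64.3 against 205 CPM. The chemokine genes Ccl3 and Ccl4 were lower too: Ccl3 stood at 531 against 1125 CPM and 557 against 1290 CPM, and Ccl4 at 733 against 1931 CPM and 748 against 1563 CPM. Ifng, the gene of interferon gamma, stood at 181 against 427 CPM and 214 against 357 CPM. Serpinb9b, a serpin gene, Ly6c2, a Ly6 family surface protein gene, and Sgk1, a kinase gene, completed this side. Ly6c2 was uneven, with a ratio of -0.22 (-0.58 to 0.11) in KO and -1.75 (-2.39 to -1.53) in WT, and a mean that moved to -0.15 by the rule on thinned cells.

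**Figure D2:**
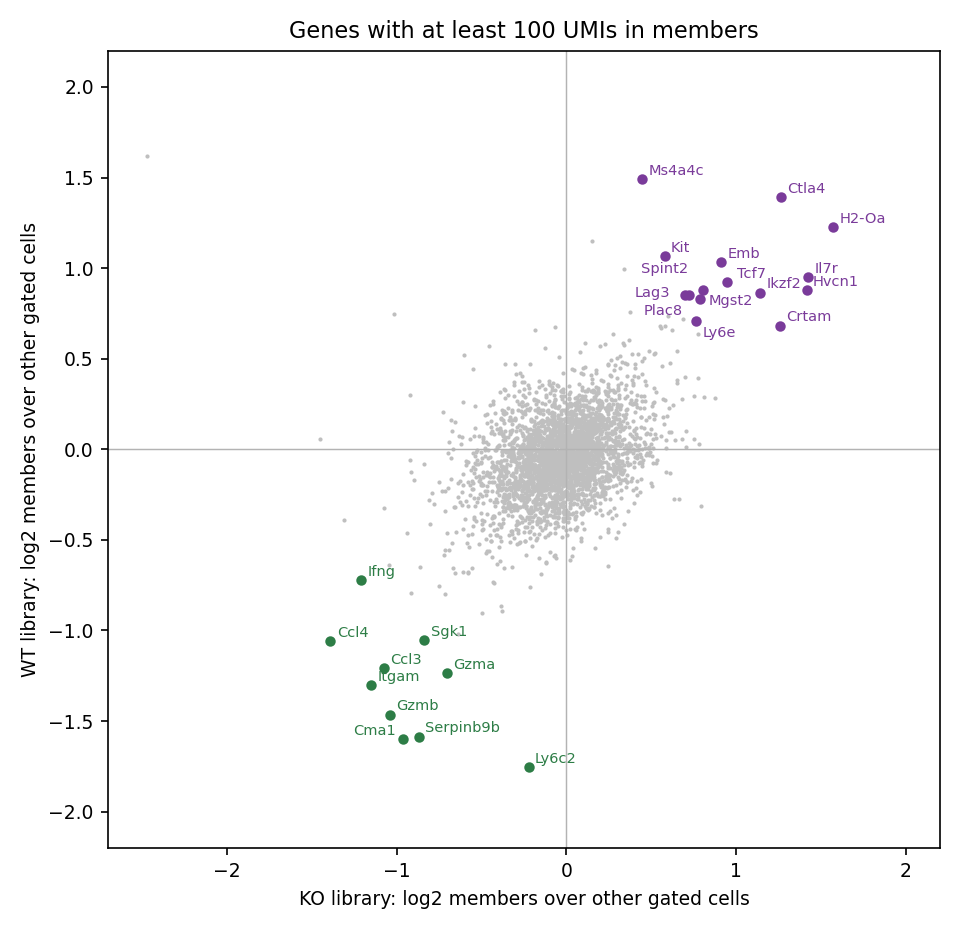
Log2 ratio of members over other gated cells in the KO library (horizontal) and the WT library (vertical), 1 point per gene for 3312 genes with at least 100 UMIs in members, with the 15 highest in purple and the 10 lowest in green. Gzmb, Cma1 and Itgam lie low in both libraries and Emb, Tcf7 and Il7r high in both, while Ly6c2 is low chiefly in WT; Cd74, at -2.47 in KO and 1.62 in WT, is the point far to the upper left.

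Gene lists were read at a smaller step, 1.5-fold among genes with at least 50 UMIs in members, beside 46 higher genes (0.877%) and 53 lower genes (1.01%) of 5245. Genes of immature CD27 NK cells had 6 of 14 measured members higher (Emb, Thy1, Kit, Il7r, Tcf7 and Ctla2a), 0 lower, and a median log2 ratio of 0.49. Cd27 itself stood at 238 against 165 CPM in KO and 193 against 132 CPM in WT, short of 1.5-fold. Thy1 turned to -0.19 against all other kept cells. Genes of mature NK cells had 0 of 15 higher and 8 lower (Itgam, Cma1, Gzma, Gzmb, Prf1, Ccl5, Ly6c2 and Irf8), with a median of -0.64. The median over all 3312 genes was -0.03. These 2 lists thus lay on opposite sides in both libraries, with medians of 0.49 and 0.58 for the immature list in KO and WT and -0.47 and -0.68 for the mature list. Ltb and Cxcr3 belong to the immature list and Klrg1, Zeb2, Cx3cr1 and S1pr5 to the mature list, and these genes of the rule were left out of the counts.

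Cytotoxic granule genes had 0 of 14 higher and 4 lower (Gzma, Gzmb, Prf1 and Stx11), with a median of -0.24. Prf1, perforin, stood at 90.2 against 143 CPM in KO and 108 against 225 CPM in WT. Of 4 measured chemokine genes, Ccl3, Ccl4 and Ccl5 were lower and Xcl1 was not, with a median of -0.92. Checkpoint receptors had 3 of 6 higher (Lag3, Ctla4 and Cd160) and 0 lower, with a median of 0.56. In the Ly6 family Ly6e and Ly6a were higher and Ly6c2 lower of 3 measured, with a median of 0.74. That median rested on 3 genes and turned to -0.01 when members and other gated cells were thinned to 2500 UMIs, and to -0.28 against all other kept cells. The thinned median may rest on fewer genes, since the UMI minimum was applied anew.

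Among transcription factors of NK cells, Ikzf2 and Tcf7 were higher and 0 lower of 18. Chemokine and lipid receptors outside the rule had 1 of 8 higher (Gpr183, a receptor for oxysterols) and 0 lower. Cytokine receptor and signalling genes had 0 of 18 higher and 2 lower (Il12rb2 and Pim1). Immediate early genes had 0 of 17 higher and 2 lower (Ier2 and Dusp2), with a median of -0.46. The NF-kB list had 1 of 19 higher (Tnfaip8) and 1 lower (Tnfaip3), with a median of -0.24. The exclusion on Nr4a1 and its companions applied to both groups compared here. Integrins had 0 of 13 higher and 1 lower (Itgam), and Ly49 and NKG2 receptors 0 of 13 higher and 1 lower (Klra9). Activating receptors had 1 of 19 higher (Slamf6), genes of ILC1 and tissue residency 2 of 8 (Cd160 and Il7r), interferon-stimulated genes 1 of 11 (Ly6e), and S and G2M genes 2 of 16 (Rrm2 and Birc5), each with 0 lower. Rrm2 and Birc5 rested on few cells, with all of their UMIs in KO members in 10 cells or fewer, and their mean ratios turned to -0.20 and -0.23 without cells carrying at least 3 proliferation genes. Survival genes had 1 of 14 higher (Birc5) and 1 lower (Cdkn1a). Glycolysis, other HIF targets, nuclear oxidative phosphorylation, TGF-beta response, heat shock, class I antigen presentation, the Clr and NKR-P1 genes, the 10 measured lymphotoxin and TNF genes and housekeeping genes had 0 higher and 0 lower.

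At equal depth Emb, Gzmb and Itgam kept their directions. Deep enough to thin were 193 of 211 KO and 359 of 363 WT members. Of the other gated cells, 483 of 670 in KO and 999 of 1056 in WT were, so the KO comparison group lost more cells. With each cell thinned to 2500 UMIs, Emb was found in 72.0% of KO and 63.5% of WT members, against 41.2% and 33.6% of other gated cells. At full depth these shares were 77.7% and 78.0% against 44.0% and 41.4%. Gzmb was found in 70.5% and 67.1% of thinned members, against 82.8% and 86.2% of other gated cells, and at full depth in 85.8% and 84.3% against 87.5% and 90.8%. Itgam was found in 9.84% and 7.80% of thinned members, against 22.98% and 20.3%, and at full depth in 16.1% and 15.7% against 28.4% and 28.4%. Members thus had Emb in more cells and Gzmb and Itgam in fewer cells in both libraries. With both groups thinned, 3 list medians besides that of the Ly6 family changed side. Interferon-stimulated genes moved from 0.073 to -0.27, S and G2M genes from 0.15 to -0.012 and NK transcription factors from -0.047 to 0.019. The UMI minimum for lists was applied anew to the thinned members, so the thinned medians can rest on fewer genes. How many genes remained is not given, so these moves do not show that the same genes changed side.

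Splitting the gated cells by Ltb and by receptor showed that each part of the rule went with lower Gzmb and Gzma. Gzmb stood at 971 CPM in KO members, at 1504 CPM in the 58 cells with Ltb and no receptor, at 1544 CPM in the 350 cells with a receptor and no Ltb, and at 2875 CPM in the 262 cells with neither. In WT the same classes, of 363, 114, 529 and 413 cells, stood at 830, 1549, 2066 and 2884 CPM. Gzma stood in the same order, from 8629 to 16124 CPM in KO and from 4771 to 12899 CPM in WT. Emb went the other way, with 649, 402, 435 and 177 CPM in KO and 555, 399, 309 and 166 CPM in WT. Cells with neither gene were thus at the far end for Gzmb, Gzma and Emb in both libraries. Among WT cells with Ltb, Cma1 stood at 64.3 CPM in members and 57.6 CPM without a receptor, so it was not lower with the receptor there. Among WT cells without Ltb it was lower with a receptor, at 188 CPM against 275 CPM with neither. The median depths of the classes, in the same order, were 4023, 3302, 3350 and 2736 UMIs in KO. In WT they were 5175, 3597.5, 4028 and 3351 UMIs, and the part of depth was not tested.

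Not every gene followed the full rule. In WT, Ly6e stood at 608 CPM (540 to 683) in cells with Ltb and no receptor and at 548 CPM (517 to 581) in members, and Tcf7 at 166 CPM (132 to 208) and 145 CPM (129 to 163). These intervals overlapped, so members and cells with Ltb alone could not be told apart by Ly6e or Tcf7 in WT. In KO the order was the other way, with Ly6e at 561 CPM (515 to 611) in members and 446 CPM (359 to 547) with Ltb alone, and Tcf7 at 149 CPM (125 to 176) and 113 CPM (71.4 to 169), and these intervals overlapped too. WT cells with a receptor alone had 334 CPM of Ly6e and 74.5 CPM of Tcf7. Both values lay below the intervals of WT cells with Ltb alone. KO cells with a receptor alone had 336 CPM of Ly6e, below the interval of KO cells with Ltb alone. Their Tcf7, at 85.3 CPM, lay inside it.

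**Figure D3:**
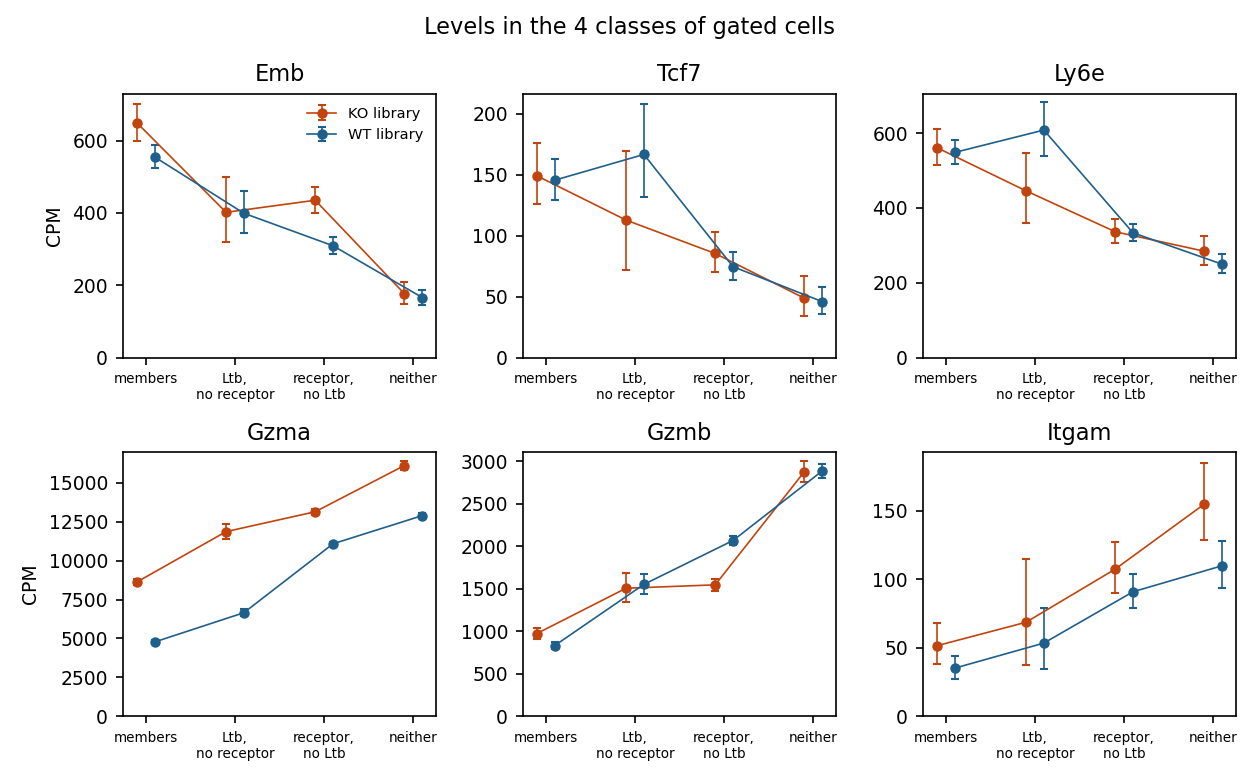
CPM of UMIs summed over cells for 6 genes in the 4 classes of gated cells (members, Ltb without receptor, receptor without Ltb, neither), KO and WT libraries, with exact 95% Poisson intervals as bars and axes from 0. Gzmb runs from 971 CPM in KO members to 2875 CPM in KO cells with neither, while Emb runs from 649 down to 177 CPM.

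Within members, Gzma, Ccl3 and Itgam stood lower with 3 or more Ltb UMIs than with 1. In KO members Gzma stood at 11149 CPM (10832 to 11472) with 1 Ltb UMI, 8941 CPM with 2, and 5278 CPM (5035 to 5530) with 3 or more. In WT members it stood at 6665 CPM (6489 to 6844), 4539 CPM and 3095 CPM (2980 to 3214). Ccl3 stood at 687, 711 and 227 CPM in KO and 765, 580 and 350 CPM in WT. Itgam stood at 78.5, 45.4 and 20.9 CPM in KO and 46.4, 38.2 and 22.9 CPM in WT. Gzmb stood at 1206, 858 and 744 CPM in KO, and at 1107, 623 and 662 CPM in WT. Prf1 stood at 107 CPM (78.1 to 143), 101 CPM and 62.8 CPM (38.9 to 95.9) in KO. In WT Prf1 stood at 128 CPM (105 to 155), 76.3 CPM and 104 CPM (84.0 to 128). The end intervals of Prf1 overlapped in both libraries, and those of Itgam in WT.

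Ly6e went up with the Ltb count, at 407, 535 and 771 CPM in KO and 433, 489 and 684 CPM in WT, and Tcf7 stood at 117, 131 and 200 CPM and at 125, 137 and 169 CPM. Eomes did not follow one course, at 259, 237 and 296 CPM in KO and 238, 226 and 190 CPM in WT. Ccr2 was level in WT, at 450, 481 and 450 CPM, and stood at 578, 585 and 490 CPM in KO. Cells with more Ltb were deeper, with median depths of 3747, 4049 and 5088 UMIs in KO and 4695, 4797 and 6088 in WT. The part of depth in these courses was not tested.

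**Figure D4:**
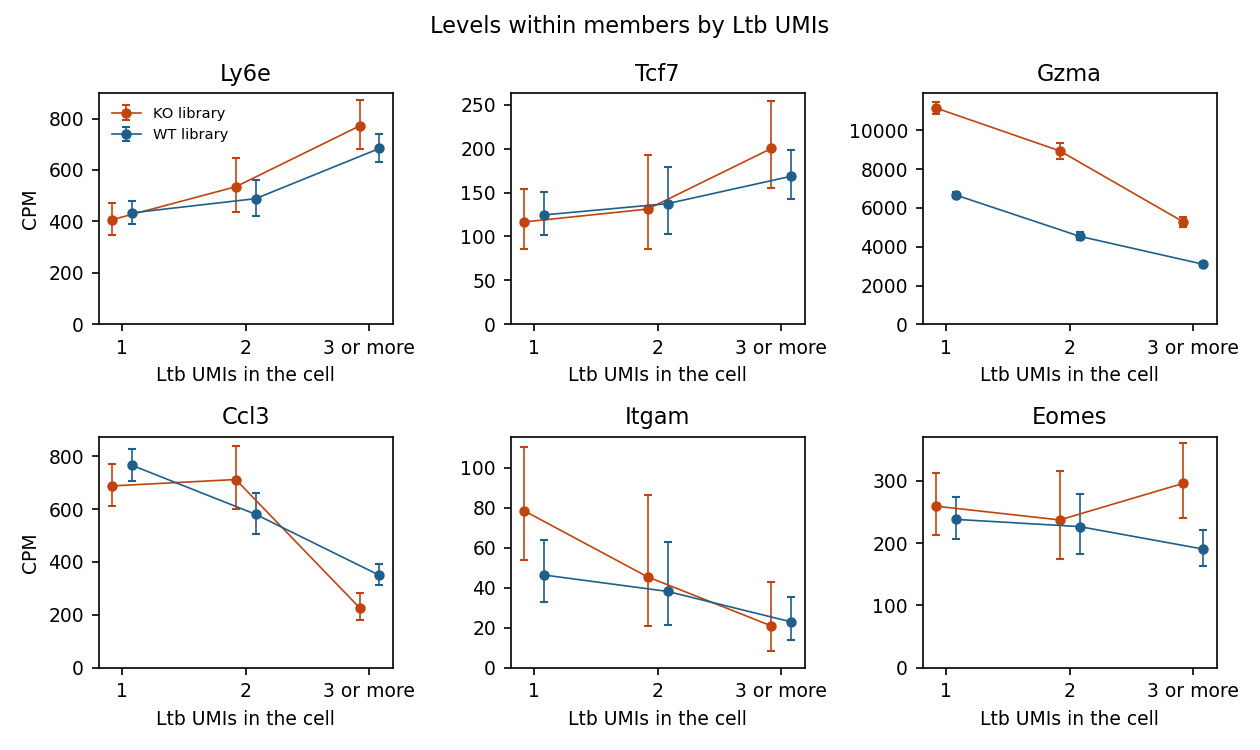
CPM within members by Ltb UMIs in the cell (1, 2, 3 or more) for 6 genes, KO and WT libraries, with exact 95% Poisson intervals as bars and axes from 0. Gzma falls from 11149 to 5278 CPM in KO and from 6665 to 3095 CPM in WT, and Ly6e climbs from 407 to 771 CPM and from 433 to 684 CPM.

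The members with Cxcr3 alone were few, 20 in KO and 24 in WT, with 71503 and 120081 UMIs. Compared with members that had Ccr2 alone, 4 genes of 2423 (0.165%) were higher and 46 (1.9%) lower by 2-fold or more, with the same sign in both libraries. The part of the small sets in these counts was not tested. Hspa1a, a heat shock protein gene, stood at 1706 CPM with Cxcr3 alone against 431 CPM with Ccr2 alone in KO, and at 2323 against 1004 CPM in WT. Its log2 ratios were 1.97 (1.67 to 2.30) and 1.21 (1.02 to 1.40), with a mean of 1.59. The mean fell short of 2-fold under 4 alternatives, at 0.26 by the rule on thinned cells, 0.62 without cells carrying at least 3 markers of other cell types, 0.88 with at least 2 Ltb UMIs and 0.97 without Il7r cells. Ikzf2 stood at 364 against 117 CPM in KO and 133 against 90.1 CPM in WT, where the interval of -0.29 to 1.33 around 0.54 took in 0. Without cells carrying at least 3 S and G2M genes the mean ratio of Ikzf2 turned to -2.48. That setting left 56 KO and 60 WT members of all receptor classes together, and how many had Cxcr3 alone is not given.

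Klrb1a, an NK receptor gene of the NKR-P1 family, was lower with Cxcr3 alone, with 6 UMIs against 132 in KO (83.9 against 208 CPM) and 5 against 201 in WT (41.6 against 160 CPM). Its ratios were -1.26 (-2.78 to -0.15) and -1.82 (-3.58 to -0.70), and their mean moved to -0.14 by the rule on thinned cells. Spp1, the gene of osteopontin, had 0 UMIs with Cxcr3 alone against 57 with Ccr2 alone in KO, and 3 against 401 in WT. By the rule on thinned cells its mean ratio moved from -3.84 to -0.89. Gzma stood at 5412 against 8796 CPM in KO and 3614 against 5270 CPM in WT. Ltb was much the same, at 559 against 451 CPM and 508 against 431 CPM, with ratios of 0.31 (-0.20 to 0.79) and 0.23 (-0.17 to 0.62).

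The comparison of the KO with the WT library within members had 1 library per genotype, so genotype and library cannot be told apart. Of 3312 genes with at least 100 UMIs in members, 17 (0.513%) stood higher in KO by 2-fold or more and 17 (0.513%) lower. The median over all 3312 genes was 0.06. Ltb stood at 515 CPM in KO and 460 CPM in WT members, Ccr2 at 549 and 456 CPM, and Cxcr3 at 98.6 and 86.4 CPM, all shaped by the rule. The count of higher genes was 52 without the exclusion on Nr4a1 and its companions, and the counts were 9 and 3 without cells carrying at least 3 S and G2M genes. Without those cells Stat5a, Ccr7, Ly6a and Hsph1, named among the lists below, turned to -0.70, -0.10, 0.59 and 0.55. The first setting had 394 KO and 411 WT members and the second 56 and 60. The 100 UMI minimum was applied to each anew, so the genes tested differed and these counts are not shares.

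Cma1 stood at 296 CPM in KO and 64.3 CPM in WT members, a log2 ratio of 2.12 (1.90 to 2.51), beside 1.48 in the other gated cells. Gzma stood at 8629 and 4771 CPM, a ratio of 0.85 (0.81 to 0.90), beside 0.32 in the other gated cells. Ly6c2 stood at 102 and 24.9 CPM, a ratio of 1.83 (1.53 to 2.54), and was nearly level in other gated cells at 0.30. That ratio rested on few cells, since 10 cells held 80.4% of its UMIs in KO members and 57.7% in WT members. These 3 genes belong to the mature list, of which S100a4 and Anxa2 were lower in KO members.

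Further genes on the higher side had ratios above 0 in the other gated cells too. Itgb3, the integrin beta-3 chain, stood at 357 CPM in KO and 122 CPM in WT members, a ratio of 1.51 (1.31 to 1.78), beside 1.89 in other gated cells. Dhrs3, a retinal reductase gene, stood at 134 and 34.1 CPM, with ratios of 1.83 in members and 1.74 in other gated cells. Plac8 stood at 969 and 452 CPM, with ratios of 1.09 and 1.25. Slx1b, a structure-specific nuclease subunit gene, had the highest ratio, 2.17 (1.89 to 3.07), from 95.5 and 17.3 CPM, beside 1.29. Klhdc2, Trf, Trmt61a, N4bp1, Cep85 and Rnf157 were the others among the 12 highest, with ratios of 1.13 to 1.37 in members and 0.35 to 1.53 in other gated cells.

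On the lower side, Anxa2, the gene of annexin A2, stood at 352 CPM in KO and 800 CPM in WT members, a ratio of -1.17 (-1.36 to -1.01), and was just as much lower in other gated cells at -1.18. Hspa1a stood at 479 and 1091 CPM, a ratio of -1.18 (-1.33 to -1.04), beside -0.89. Gzmc, granzyme C, stood at 58.7 and 159 CPM, a ratio of -1.36 (-1.87 to -1.02), beside -0.81. Rgs16, a regulator of G-protein signalling, stood at 29.4 and 88.3 CPM, a ratio of -1.44, beside -1.31. Ms4a4c, a membrane protein gene, stood at 35.7 and 93.6 CPM, a ratio of -1.28 (-1.96 to -0.86), beside -0.23. Without cells carrying at least 3 S and G2M genes the ratios of Gzmc and Ms4a4c were -0.51 and -0.48, and without the exclusion on Nr4a1 and its companions that of Rgs16 was -0.73. Mt1, a metallothionein, had a ratio of -1.69, and Stk39, Eno1b and Fam96a had ratios of -1.20, -1.19 and -1.18.

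The lowest ratios rested on few KO UMIs or few cells. Hist1h2ap, a histone gene, had 5 UMIs in KO and 189 in WT members, a ratio of -3.22 (-5.75 to -2.86). The ratio was -1.35 without cells carrying at least 3 proliferation genes and -0.87 without those carrying at least 3 S and G2M genes. Spp1 had 67 and 530 UMIs, or 70.3 and 254 CPM, a ratio of -1.78 (-2.24 to -1.49), while it was level in other gated cells at -0.02. In KO members 10 cells held 92.5% of the Spp1 UMIs, and in WT members 50.8%. Cd74, the MHC class II invariant chain, had 16 and 147 UMIs, a ratio of -1.79, and stood at 2.30 in other gated cells. In members its ratio turned to 0.18 without cells carrying at least 3 markers of other cell types.

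**Figure D5:**
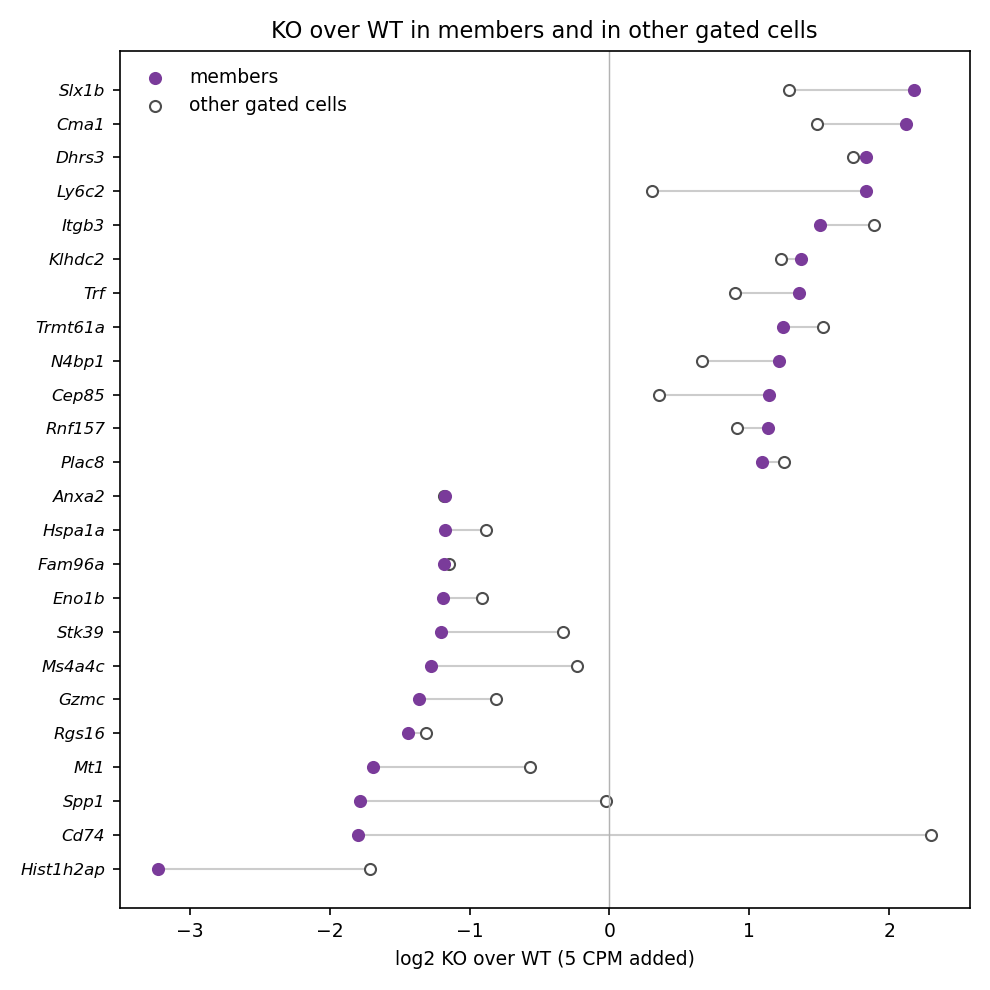
Log2 ratio of KO over WT for the 12 highest and 12 lowest genes in members (filled points) and the same genes in other gated cells (open points), with 5 CPM added to both libraries. Most genes lie on the same side in both groups, from 2.17 for Slx1b to -3.22 for Hist1h2ap in members, while Cd74 changes side.

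At 1.5-fold, 313 of 5245 genes (5.97%) were higher and 133 (2.54%) lower in KO members. Cytokine receptor and signalling genes had 4 of 18 higher (Il12rb2, Il21r, Stat4 and Stat5a) and 0 lower, with a median of 0.35. Il12rb2, an interleukin-12 receptor chain, stood at 68.2 and 40.8 CPM, and Stat4, its signal transducer, at 264 and 167 CPM. Transcription factors had 3 of 18 higher (Tbx21, Ikzf2 and Stat4) and 0 lower, and Tbx21, the gene of T-bet, stood at 95.5 and 53.3 CPM with a ratio of 0.79 (0.43 to 1.25). TGF-beta response genes had 2 of 11 higher (Tgfbr2 and Pmepa1) and 0 lower, with a median of 0.31. That median moved to -0.014 with at least 2 Ltb UMIs and to -0.0040 without cells carrying at least 3 S and G2M genes. Pmepa1 stood at 39.9 and 11.995 CPM.

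Genes that HIF-1 is known to drive were mixed. Glycolysis had 0 of 15 higher and 3 lower (Tpi1, Pgk1 and Slc16a3), with a median of -0.35. Tpi1, triosephosphate isomerase, stood at 164 CPM in KO and 275 CPM in WT members, a ratio of -0.73 (-1.01 to -0.49), and Pgk1, phosphoglycerate kinase, at 75.5 and 123 CPM, a ratio of -0.67 (-1.10 to -0.32). Of 11 other HIF targets, Vegfa was higher, at 85.0 and 54.2 CPM, and P4ha1 and Ddit4 were lower, with a median of -0.05. Vegfa, an angiogenic factor gene, had a ratio of 0.60 (0.22 to 1.07) in members and 0.98 in other gated cells. Nuclear oxidative phosphorylation had 0 of 20 higher and 0 lower, with a median of -0.09.

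Immediate early genes had 0 of 17 higher and 3 lower (Fos, Fosb and Atf3), with a median of -0.07, and the NF-kB list 2 of 19 higher (Bcl3 and Gadd45b) and 0 lower, with a median of 0.09. Fos stood at 438 and 802 CPM, a ratio of -0.86 (-1.03 to -0.72). Without the exclusion on Nr4a1 and its companions these medians were 0.58 and 0.59. Heat shock genes had 0 of 12 higher and 3 lower (Hspa1a, Hsph1 and Hspb1), with a median of -0.37.

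Mature NK genes had 3 of 15 higher (Cma1, Gzma and Ly6c2) and 2 lower (S100a4 and Anxa2), and immature genes 2 of 14 higher (Il7r and Ccr7) and 1 lower (Xcl1). Xcl1, a chemokine gene, stood at 395 CPM in KO and 729 CPM in WT members. Emb and Tcf7 differed little between KO and WT members, with ratios of 0.23 (0.08 to 0.37) and 0.03 (-0.26 to 0.33). The interval of Emb left out 0. Cytotoxic granule genes had 2 of 14 higher (Gzma and Fasl), chemokine and lipid receptors 2 of 8 (Ccr7 and S1pr1), and integrins 1 of 13 (Itgb3), each with 0 lower. Survival genes had 2 of 14 higher (Bcl2 and Bcl2l11) and 1 lower (Birc5), activating receptors 2 of 19 higher (Cd226 and Slamf6) and 1 lower (Slamf7), and genes of ILC1 and residency 2 of 8 higher (Il21r and Il7r) and 1 lower (Gzmc). Checkpoint receptors had 0 of 6 higher and 1 lower (Lilrb4a), chemokines 0 of 4 and 1 lower (Xcl1), and S and G2M genes 0 of 16 and 3 lower (Birc5, Stmn1 and Hist1h2ap). The lymphotoxin and TNF list had 1 of 10 higher (Map3k14), the Ly6 family 1 of 3 higher (Ly6c2) and 1 lower (Ly6a), and housekeeping genes 0 of 13 higher and 1 lower (Pgk1). Interferon-stimulated genes, class I presentation, Clr and NKR-P1 genes and Ly49 receptors had 0 higher and 0 lower.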

How the data were processed

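Each sample was a table of whole-number UMI counts per gene symbol and barcode, deposited by the authors and not normalized, with 27998 genes in each. The submitters' processing notes list Cell Ranger 2.0.2, Seurat and mm10 and do not say which did what. Annotation, cell calling and doublet removal were not given in the sources used here. No doublet caller was run, so doublets stayed in. Leaving out the deepest 3% of cells was among the alternatives. Members were found by the stated rule, and UMIs were summed over members and over other gated cells per library, as CPM, with Python 3.11.15, numpy 2.4.6, scipy 1.17.1 and pandas 2.3.3. Log2 ratios have 5 CPM added. Their intervals are exact conditional binomial intervals without the added CPM, shares have Clopper-Pearson and sums Poisson intervals, all at 95%, and the script was tested on simulated counts. Genes of the rule and mitochondrial, ribosomal protein, hemoglobin, antigen receptor, sex-linked RNA (Xist, Tsix, Y-linked) and unnamed genes were left out of counts of genes. Named genes were the genes of the rule, Ly6e, Clec2i, Cd7 and Hif1a, then the 12 highest and 12 lowest of KO over WT, the 15 highest and 10 lowest of members over other gated cells, the 8 highest and 8 lowest of Cxcr3-only over Ccr2-only members (not all of them are reported here), and up to 5 per list with the largest ratios. Others (Lta, Ltbr, Tnf, Tnfsf14, Tnfrsf14, Nfkb2 and, for the Cxcr3 subset, Ltb and Gzma) were chosen after their values were seen. The members and lists were chosen with earlier results of these data known. Positions are from GENCODE M21 on GRCm38 and the promoter from RefSeq. Granzymes, Klra, Klrb1 and Ly6 genes are related in sequence, so their UMIs are uncertain where counting could split them.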

Additional observations from a re-analysis of the deposited data

Results flagged for a closer look

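For 2 genes the libraries went opposite ways when members were compared with other gated cells, and the difference between libraries was not tested. Cd74, the MHC class II invariant chain, was lower in KO members, with a log2 ratio of -2.47, and higher in WT members, at 1.62. It stood at 16.8 CPM in KO members and 116 CPM in other KO cells, and at 70.5 and 19.6 CPM in WT. Few cells held these UMIs: 10 cells had 87.5% of them in KO members, 93.9% in other KO cells, 71.4% in WT members and 51.2% in other WT cells. Cd74 was also on the myeloid and dendritic marker list, and without cells carrying at least 3 markers of other cell types its log2 ratio of KO over WT in members was 0.18 in place of -1.79. Spp1, the gene of osteopontin, was lower in KO members at -1.02 and higher in WT members at 0.74. It stood at 70.3 CPM in KO members and 147 CPM in other KO cells, and at 254 and 150 CPM in WT, with 92.5%, 81.3%, 50.8% and 41.8% of its UMIs in 10 cells, in that order. What lies behind either difference was not tested.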

How the results depend on the processing

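With 1 library per genotype, an interval covers counting error only, and no result has a replicate check. No paired analysis was possible because each genotype had 1 library and the labels carry no replicate numbers. Counts of genes 2-fold apart moved with settings, while the named genes mostly did not: the 12 genes highest in KO members kept their direction under all 16 alternatives run for them and the 10 genes lowest in members under all 19. The 15 genes highest in members kept it under 16 of 19, and 13, 13 and 14 did so without cells with 3 S and G2M genes, with Cxcr3 as the sole receptor, and without Il7r cells. The 12 genes lowest in KO members kept it except Cd74. Cells with 3 S and G2M genes were 155 of 211 KO and 303 of 363 WT members, so that alternative left 56 and 60. Among other gated cells they were 387 of 670 in KO and 749 of 1056 in WT. That list includes Stmn1, Tuba1b, Tubb5 and Hmgb2, so these are not counts of cycling cells. The proliferation alternative used the list without these genes and left 177 KO and 235 WT members. The proliferation, T marker, Il7r and other cell type alternatives were chosen after seeing the data. Alternatives that changed or thinned the cells applied the UMI minimums anew to their own members. Their gene counts and list medians can thus rest on other genes than the main ones, and the counts are not shares. Narrower rules (at least 2 Ltb UMIs, or a sole receptor) moved the members they left out into the other gated cells. The causes of the changes were not tested.

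Members were 3.49% of KO and 5.79% of WT cells with at least 2 Ltb UMIs, 5.63% and 7.25% without cells with 3 S and G2M genes, 12.8% and 11.6% without the exclusion on Nr4a1 and its companions, 2.25% and 3.74% with Cxcr3 as the sole receptor, and 7.71% in WT by the rule on cells thinned to 2500 UMIs. Genes 2-fold higher and lower in KO members were 9 and 3 without cells with 3 S and G2M genes, 10 and 11 with Cxcr3 alone, 9 and 10 with 20 CPM added, 31 and 27 at a minimum of 50 UMIs and 96 and 72 at 1 UMI. A lower minimum tests more genes, 5245 at 50 UMIs in place of 3312, so these counts are not shares. Settings that changed or thinned the members also changed which genes were tested. Higher genes were 52 without the Nr4a1 exclusion. Lower genes were 5 by the rule on thinned cells and 7 without cells carrying 3 markers of other types.

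Genes 2-fold higher in members than in other gated cells, 5 in the report, were 2 with at least 1000 genes and at most 5% mitochondrial UMIs (both changed together), 3 with at least 2 Ltb UMIs, 2 without S and G2M cells, 0 with Cxcr3 alone, 2 with Ccr2 alone, 0 with 20 CPM added, 8 after rescaling by the median ratio, 3 with both groups thinned, and 3, 3 and 0 without proliferating, Il7r and other-marker cells. Higher and lower genes were 1 and 3 by the rule on thinned cells, 9 and 11 at 1 UMI, and 22 and 14 against cells with neither Ltb nor receptor. Lower genes were 27 against all other kept cells and 2 without other-marker cells. Genes higher and lower with Cxcr3 alone than with Ccr2 alone were 0 and 22 by the rule on thinned cells, 12 and 85 without the Nr4a1 exclusion, 1 and 15 with 20 CPM added, 42 and 169 at 50 UMIs, 288 and 895 at 1 UMI, and 15 and 80 without Il7r cells. Higher genes were 7 with cells weighted equally and 1 without other-marker cells, and lower genes 20 without S and G2M cells. More genes are tested as the UMI minimum falls, so the counts at 50 UMIs and 1 UMI do not show a larger share.

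Directions turned for few genes. Without S and G2M cells, KO over WT was -0.10 for Ccr7, 0.59 for Ly6a, -0.70 for Stat5a and 0.55 for Hsph1, members over other gated cells was -0.18 for Crtam, -0.16 for Lag3, -0.73 for Birc5 and -1.02 for Rrm2, and Cxcr3 alone over Ccr2 alone was -2.48 for Ikzf2. With Cxcr3 as sole receptor the values were -0.30 for Stat5a, -0.26 for Ctla4, -0.22 for Crtam and -0.16 for Rrm2. Against all other kept cells they were -0.28 for Ly6a, -0.35 for Birc5 and -0.19 for Thy1. Without proliferating cells Birc5 was 0.43 in KO over WT and -0.23 in members, and Rrm2 -0.20. Without other-marker cells Birc5 was -0.22 in members and Cd74 0.18 in KO over WT. The Ly6 family median was -0.0096 with both groups thinned, -0.28 against all other kept cells, -0.00738 without proliferating cells, -0.075 without cells with a T marker UMI and -0.040 without other-marker cells. Apart from the value against all other kept cells, these medians may rest on fewer genes than the main one.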
